A study of Homo sapiens with 6 samples.

Results

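Forkhead (FOX) genes encode transcription factors that share a winged-helix DNA-binding domain. Chromatin accessibility at these genes was measured by ATAC-seq, in which the Tn5 transposase cuts open DNA, in A375 cells, a human BRAF-mutant melanoma line. The members were taken from the protein-coding genes of GENCODE release 44 whose symbol is FOX, a letter and a number, copies such as FOXD4L1 included. A peak belonged to a gene when its centre lay inside the gene, or when it lay in no protein-coding gene and that gene had the nearest protein-coding start site. Of 20020 protein-coding symbols 50 were members, and 47 of them held 785 of the 152800 peaks. FOXH1, a partner of SMAD proteins in Nodal signalling, FOXP3, the lineage factor of regulatory T cells, and FOXR1 had no peak.

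HMGB2OE cells carried a lentiviral vector expressing HMGB2, a high-mobility group protein that binds and bends DNA, and the controls carried an empty vector. Both were stable lines of A375 made by transduction, and each was sequenced as 3 libraries. The study describes these as technical replicates without independent replication, so p-values measure the spread between libraries only. The comparison addresses whether more HMGB2 goes with a change in accessible chromatin.

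The FOXO proteins are held in the cytoplasm when insulin and growth factor signals activate PI3K and AKT, and turn on genes of metabolism, stress resistance and cell cycle arrest when those signals fall. FOXA proteins are pioneer factors that open compacted chromatin, FOXM1 drives genes of mitosis, and FOXP, FOXC, FOXF and FOXD proteins pattern developing tissues, the neural crest among them. Which forkhead genes a melanoma cell keeps open therefore bears on growth signalling and on lineage.

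Counts in peaks ran from 26910189 to 45645294 per library, and TMM factors, which correct library size for composition, from 0.975 to 1.02. Both peaks centred inside HMGB2 were higher in HMGB2OE (log2 fold changes 1.67 and 1.16, with adjusted p = 0.000113 and 0.00822 from edgeR's quasi-likelihood test), although reads of the vector's coding sequence cannot be told apart from those of the resident gene. Among defining melanocyte genes, MITF, SOX10, S100B and PMEL had a promoter peak of 1295, 862, 866 and 295 normalised counts, and MLANA, TYR, TYRP1 and DCT had none, so 4 of 8 were found. Of 10 markers of other cell types 6 had a promoter peak, between 27.3 for PECAM1 and 587 for KRT14. Levels are normalised counts, that is, counts scaled to the mean effective size (total times TMM factor) of the 6 libraries.

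Of the 785 forkhead peaks, 597 were intergenic, 80 lay within 3 kb of a start site of their own gene (promoter peaks), 100 in introns and 8 in other exons. The number of peaks per gene ran from 1 to 102 with a median of 11. The nearest start placed 622 peaks, among them promoter peaks outside the gene. The 597 intergenic peaks lay at a median of 118 kb from that start, 90 of them over 500 kb away. A filter on low counts left 710 peaks to be tested. Of the 75 peaks not tested, 74 belonged to FOXD4 and its FOXD4L copies, a family of near-identical genes spread over chromosome 9, most of them near its centromere, and chromosome 2. In those 75 peaks a median of 100% of 31-base words occurred elsewhere in the genome, and the median total over all 6 libraries was 10 counts. Over the 209 peaks of these 6 copies the median was 93.4%, against 0% over the other 576 forkhead peaks. Reads of the copies could be split between them, so their values are uncertain.

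Accessibility changed at few forkhead peaks and in both directions. A peak was called when edgeR's quasi-likelihood test gave a Benjamini-Hochberg adjusted p under 0.05, adjusted over all 150117 tested peaks, and the fold change was at least 1.5. By this rule 16 forkhead peaks were higher in HMGB2OE (2.25% of 710, against 1.87% of all tested peaks) and 9 were lower (1.27%, against 1.44%). Together 25 were called, 3.52% against a background of 3.31%. The split was 15 higher and 13 lower with a loess trend removed, where 2700 of all tested peaks were higher and 2647 lower. With offsets for GC content it was 15 and 14, where all tested peaks gave 2536 and 2038. With no fold limit 28 were higher and 23 lower, 7.18% against 6.47%. The shares given in percent were near the background. The median log2 fold change was 0.0081 over the forkhead peaks and -0.0049 over all peaks, and 365 of 710 lay above 0. In 176 forkhead peaks, 24.8%, the libraries of the 2 groups did not overlap, against 25.1% of all tested peaks.

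The calls fell in 15 genes, while the other 32 genes with a peak had none. FOXP1 and FOXL3 each held 5 of the peaks called higher, and FOXB1 held 3 of the 9 called lower. Of the calls 17 were intergenic, 5 intronic and 3 in promoters. By group, the 86 tested FOXP peaks held 5 higher and 1 lower (6.98% called, against 3.31% of all tested peaks). The 72 peaks of FOXO1, FOXO3, FOXO4 and FOXO6 held 1 higher and 0 lower (1.39%). The 135 peaks of FOXD4 and its copies held 1 of each (1.48%). The other 575 peaks without these copies had 23 calls, or 4.0%, against the same 3.31%. Median GC content was 51.2% in the peaks called higher and 43.0% in those called lower, beside 47.4% and 40.4% for all called peaks of the table, and with GC offsets 22 of the 25 calls were kept.

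**Figure D1:**
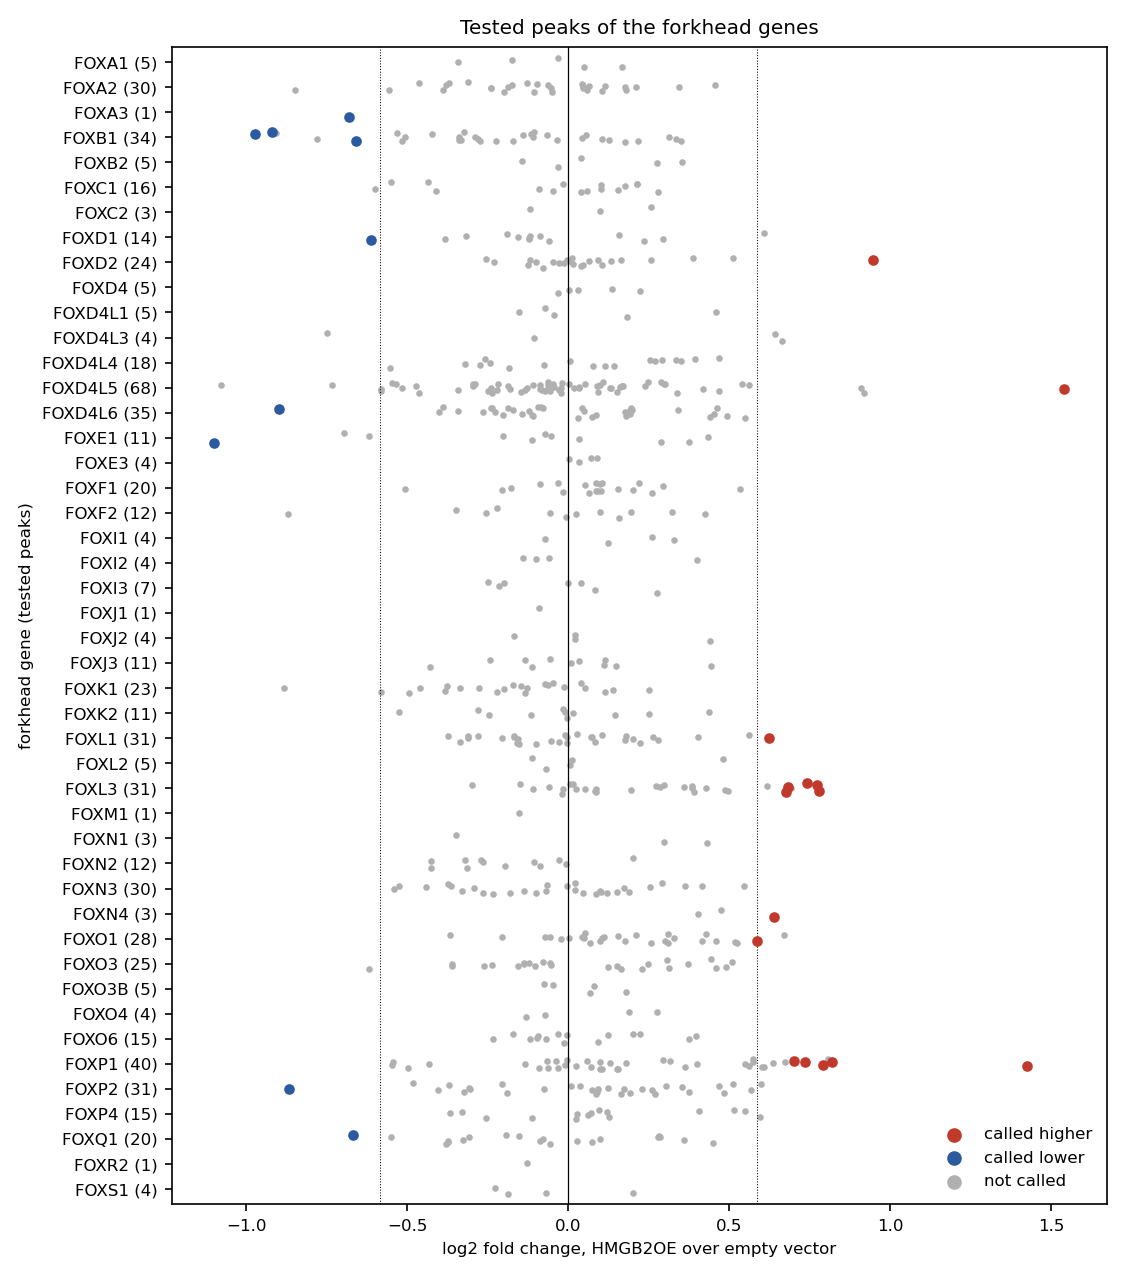
Log2 fold change (HMGB2OE over empty vector, horizontal axis) of 683 of the 710 tested peaks (1 gene is not drawn), by forkhead gene with its number of tested peaks. Red and blue points are 15 of the 16 peaks called higher and the 9 called lower, grey points were not called, and dotted lines mark a fold change of 1.5.

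FOXP1 is a transcriptional repressor of B cell, heart, lung and brain development. Its gene spans chr3:70954693-71583978 (hg38, minus strand), has many start sites, and held 40 tested peaks. All 5 calls were higher and 28 of the 40 peaks lay above 0. The call with the smallest p lay in an intron at chr3:71537118-71537619, 43.8 kb from the nearest FOXP1 start. Its empty vector libraries had 133, 118 and 132 normalised counts and its HMGB2OE libraries 196, 239 and 226. The groups did not overlap, and the difference was 0.79 on the log2 scale (standard error 0.14, adjusted p = 0.000542). An uncalled peak beside it, 43.0 kb from the same start, had a log2 fold change of 0.57 (adjusted p = 0.0102).

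A second intronic peak at chr3:71258038-71258539, 13.1 kb from a start site, had the largest change of the gene. It went from 23.6, 18.9 and 33.9 normalised counts in empty vector to 55.3, 56.7 and 93.4 in HMGB2OE. All HMGB2OE libraries lay above all empty vector libraries, by 1.42 on the log2 scale (standard error 0.29, adjusted p = 0.00281). Both peaks stayed called when any 1 library was left out. The middle 300 bases of these peaks are shown because they are the FOXP1 calls that held in every such fit. Capitals mark TGAGTCA, the binding word of AP-1, and the forkhead word TGTTTGC, each on either strand. The sequences are of the plus strand of hg38, from chr3:71537218-71537517 and from chr3:71258138-71258437.
FOXP1 43.8 kb peak: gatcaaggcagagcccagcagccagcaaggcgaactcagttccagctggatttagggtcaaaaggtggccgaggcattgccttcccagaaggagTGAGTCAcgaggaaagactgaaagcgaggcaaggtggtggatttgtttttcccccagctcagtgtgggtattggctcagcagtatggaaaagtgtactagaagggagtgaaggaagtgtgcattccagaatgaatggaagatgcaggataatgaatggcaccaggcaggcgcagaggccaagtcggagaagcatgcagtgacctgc
FOXP1 13.1 kb peak: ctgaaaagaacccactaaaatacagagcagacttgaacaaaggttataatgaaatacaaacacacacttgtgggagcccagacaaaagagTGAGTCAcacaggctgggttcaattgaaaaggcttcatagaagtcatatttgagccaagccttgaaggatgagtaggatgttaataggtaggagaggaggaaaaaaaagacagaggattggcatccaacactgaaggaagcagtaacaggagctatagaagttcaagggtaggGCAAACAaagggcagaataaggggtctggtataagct
Each window held 1 copy of TGAGTCA, and the second also held 1 forkhead word, read as GCAAACA on the plus strand.

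The other calls of FOXP1 were less stable. An intronic peak at chr3:71542563-71543064 had 91.7, 93.8 and 93.6 counts in empty vector and 134, 138 and 197 in HMGB2OE (log2 fold change 0.73, standard error 0.17, adjusted p = 0.00658). Its highest library was HMGB2OE 3, without which the change was 0.55 (adjusted p = 0.0642). At chr3:71425653-71426154, also in an intron, the counts were 80.6, 108 and 117 against 147, 210 and 141 (log2 fold change 0.70, standard error 0.17, adjusted p = 0.0109). That call was lost without empty vector 1 (0.58, adjusted p = 0.0586) or HMGB2OE 2 (0.49, adjusted p = 0.130).

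A promoter peak of an internal FOXP1 start, at chr3:71247565-71248066, had 51.4, 31 and 48.0 counts in empty vector and 74.8, 74.2 and 76.6 in HMGB2OE. The change was 0.82 (standard error 0.23, adjusted p = 0.0295). It was lost without empty vector 2 (0.60, adjusted p = 0.187) and without each HMGB2OE library in turn, at adjusted p between 0.0778 and 0.0923. The promoter peak with the highest count, 0.083 kb from the most upstream start sites, did not pass the test. It had 186, 145 and 154 counts in empty vector and 138, 154 and 171 in HMGB2OE (log2 fold change -0.06, adjusted p = 0.850). All 5 called peaks also lie in a second protein-coding gene that the annotation lists by identifier only.

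Summed over all its peaks, FOXP1 had 3584, 3378 and 3583 normalised counts in empty vector and 3774, 4234 and 4237 in HMGB2OE. The sum was higher by 0.22 on the log2 scale (standard error 0.05, adjusted p = 0.00933, edgeR's quasi-likelihood test over 18289 genes). Without empty vector 2 it was 0.19 (adjusted p = 0.0851), and over promoter peaks alone 0.24 (adjusted p = 0.126). The 23 tested peaks of other genes within 500 kb had a median log2 fold change of 0.14, and their part in the FOXP1 values was not tested.

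FOXP2, a close relative needed for speech and language circuits, had 1 call of 31 tested peaks, in the other direction. This intergenic peak at chr7:114759602-114760103, 128 kb past a start site, had 108, 92.9 and 94.8 counts in empty vector and 47.6, 55.0 and 59.7 in HMGB2OE. It fell by 0.87 on the log2 scale (standard error 0.20, adjusted p = 0.00655) and stayed called whichever library was left out. FOXP4, which acts in lung and gut development, had no call in 15 tested peaks, and its summed counts gave 0.15 (adjusted p = 0.0796).

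FOXO1 restrains growth and raises gluconeogenic and stress genes when insulin signalling is low. Its 28 tested peaks included 1 call, and 23 of them lay above 0. The called peak, intergenic at chr13:40547491-40547992 and past the 3' end of the gene (chr13:40555667-40666641, minus strand), had 197, 245 and 238 counts in empty vector and 324, 351 and 352 in HMGB2OE. The difference, 0.59 on the log2 scale (standard error 0.12, adjusted p = 0.00220), was just past the fold limit. It was under that limit without empty vector 1 (0.50), HMGB2OE 2 (0.57) or HMGB2OE 3 (0.57), at adjusted p between 0.00801 and 0.0152, and with GC offsets (0.57).

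FOXO1 was the single forkhead gene whose call on summed counts held in all 6 fits that left out a library. The sums were 5666, 5547 and 5244 in empty vector and 6340, 6713 and 5976 in HMGB2OE, so that every HMGB2OE library lay above every empty vector library. The log2 fold change was 0.21 (standard error 0.04, adjusted p = 0.00768), and without 1 library it ran from 0.17 to 0.25. Over promoter peaks alone it was 0.10 (adjusted p = 0.434). The promoter peak at the FOXO1 start had 730, 692 and 714 counts against 706, 800 and 700 (log2 fold change 0.05, adjusted p = 0.800). The 36 tested peaks of other genes within 500 kb had a median of 0.07.

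FOXO3, which shares targets with FOXO1, had no call in 25 tested peaks. Its highest promoter peak had 784, 743 and 717 counts against 724, 764 and 567 (log2 fold change -0.12, adjusted p = 0.518). FOXO4 and FOXO6 had no call in 4 and 15 tested peaks, and neither did FOXO3B, a near copy of FOXO3 in whose 5 peaks a median of 51.7% of words were repeated. Without a fold limit 6 of the 72 peaks of FOXO1, FOXO3, FOXO4 and FOXO6 (8.33%, against 6.47% of all tested peaks in either direction) were higher and 0 were lower, with 2 lower at an unadjusted p under 0.05, and 43 of the 72 lay above 0.

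**Figure D2:**
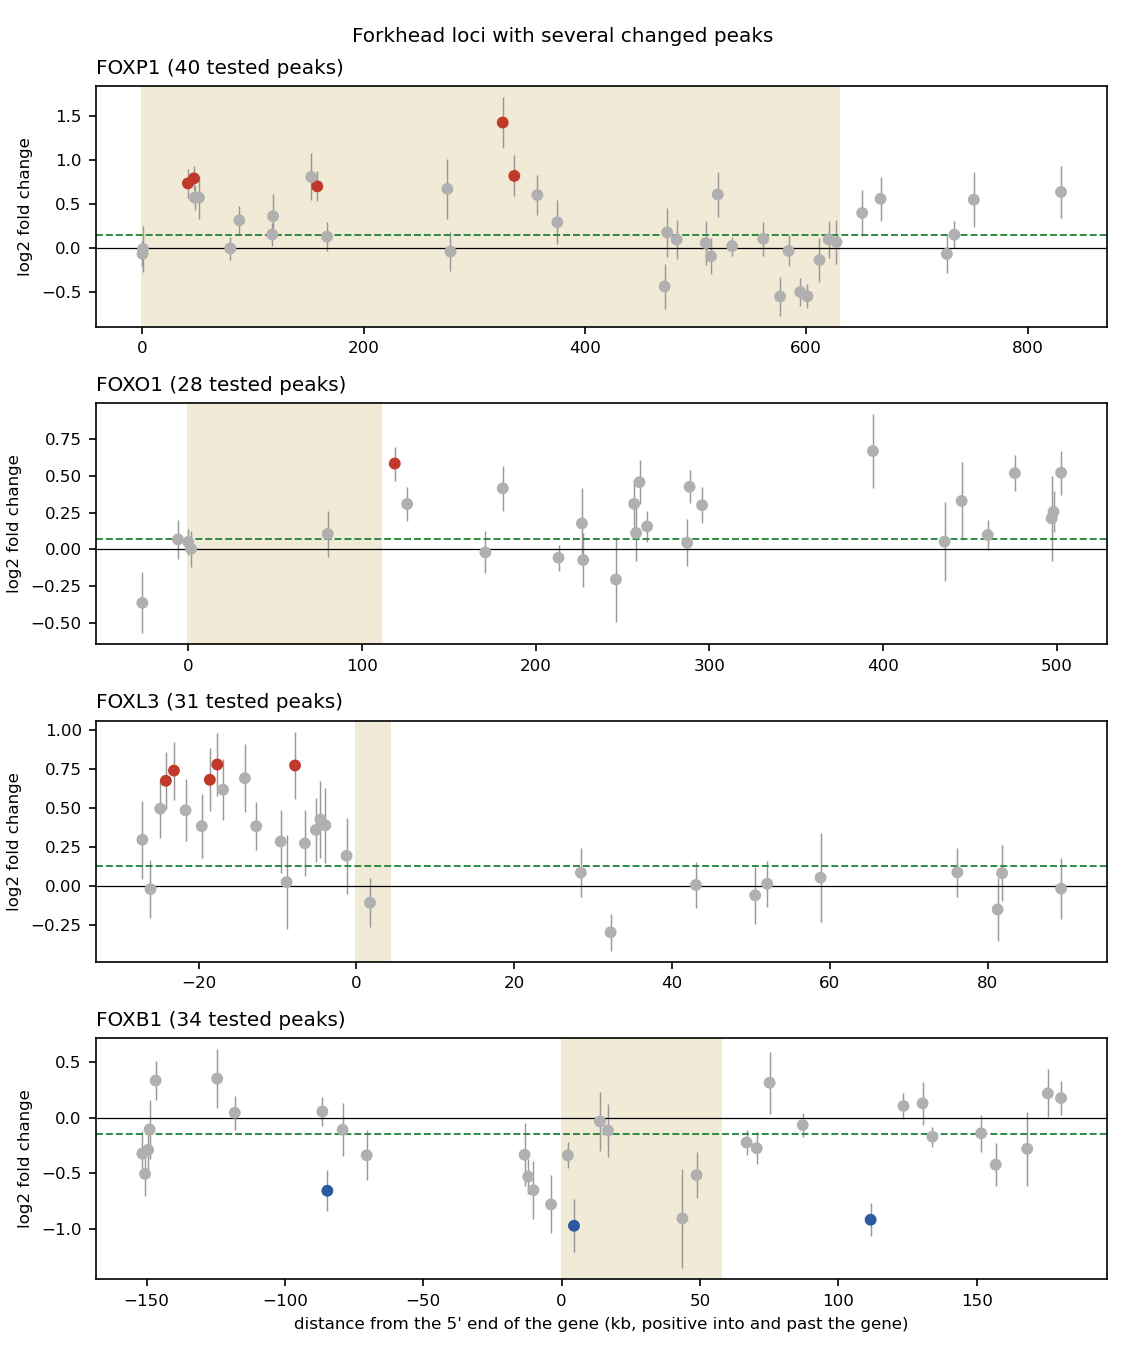
Log2 fold change of each tested peak of FOXP1, FOXO1, FOXL3 and FOXB1 against its distance from the 5' end of the gene in kb (bars, standard error). The shaded span is the gene, red and blue points were called higher and lower, grey points were not called, and the dashed line is the median of the tested peaks of other genes within 500 kb (0.14, 0.07, 0.13 and -0.15 in that order). Each panel has its own distance scale.

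FOXL3 is a little-studied gene near the end of the short arm of chromosome 7. It had 31 tested peaks, of which 25 lay above 0. Its 5 calls, all higher and all intergenic, lay between 7.79 and 24.2 kb upstream of the start. The peak at chr7:266784-267285 had 87.6, 76.6 and 94.8 counts in empty vector and 116, 123 and 197 in HMGB2OE (log2 fold change 0.74, standard error 0.19, adjusted p = 0.0142). Without HMGB2OE 3, the highest library, it was 0.47 (adjusted p = 0.153), and without empty vector 2 it was 0.65 (adjusted p = 0.0790).

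The peak at chr7:272278-272779 had 84.8, 64.5 and 108 counts against 120, 117 and 205 (log2 fold change 0.78, standard error 0.20, adjusted p = 0.0179). HMGB2OE 3 was again the highest library, and the call was lost without it (0.48, adjusted p = 0.184) or without empty vector 2 (0.58, adjusted p = 0.131). At chr7:265763-266264 the libraries were closer, with 61.2, 68.8 and 64.4 counts against 106, 95.1 and 111 (log2 fold change 0.67, standard error 0.18, adjusted p = 0.0219). That call held without HMGB2OE 2 but not without any other library, at adjusted p between 0.0503 and 0.0856.

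The peak nearest to the start, at chr7:282133-282634, had 52.8, 49.0 and 58.5 counts in empty vector and 120, 77.6 and 74.3 in HMGB2OE. HMGB2OE 1 stood highest, the log2 fold change was 0.77 (standard error 0.22, adjusted p = 0.0275), and without that library it was 0.51 (adjusted p = 0.273). It was also lost without empty vector 1 or 2 (adjusted p = 0.0586 and 0.109). The last call, at chr7:271331-271832, was the single forkhead call whose groups overlapped, with 97.3, 59.4 and 53.8 counts against 108, 96.8 and 128 (log2 fold change 0.68, standard error 0.20, adjusted p = 0.0383). Its adjusted p without empty vector 2, empty vector 3, HMGB2OE 1 or HMGB2OE 3 lay between 0.0997 and 0.172. In the peak at chr7:282133-282634, 35.0% of words were repeated in the genome. Its middle 300 bases, chr7:282233-282532 on the plus strand of hg38, are shown because they were the one called window with both forkhead words, TGTTTGC and TGTTTAC, which stand side by side on its minus strand (capitals).
FOXL3 7.79 kb peak: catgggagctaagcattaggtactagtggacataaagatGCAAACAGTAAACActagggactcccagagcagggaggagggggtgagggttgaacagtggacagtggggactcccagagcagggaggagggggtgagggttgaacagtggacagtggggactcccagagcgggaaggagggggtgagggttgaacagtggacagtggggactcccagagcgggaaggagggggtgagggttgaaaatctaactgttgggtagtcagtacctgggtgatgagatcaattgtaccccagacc

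Summed over all peaks, FOXL3 had 2888, 2400 and 2799 counts in empty vector and 3208, 3033 and 3419 in HMGB2OE (log2 fold change 0.26, standard error 0.06, adjusted p = 0.0120). Empty vector 2 was the lowest library, and without it the change was 0.18 (adjusted p = 0.102). Over its promoter peaks alone it was 0.06 (adjusted p = 0.861). The highest promoter peak, 1.71 kb into the gene, had 133, 113 and 150 counts against 128, 106 and 133 (log2 fold change -0.11, adjusted p = 0.752). The 54 tested peaks of other genes within 500 kb had a median of 0.13 with 4 called higher and 0 lower, and their part was not tested.

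FOXB1, a factor of the developing hypothalamus and spinal cord, held the largest number of peaks called lower, with 3 of 34 and only 9 above 0. The intergenic peak at chr15:60115655-60116156, 112 kb downstream of the start, had the smallest p of all forkhead peaks. It had 196, 242 and 200 counts in empty vector and 132, 112 and 93.4 in HMGB2OE. It fell by 0.92 on the log2 scale (standard error 0.15, adjusted p = 0.000243), and the change without any 1 library ran from -1.05 to -0.81, called each time. Its middle 300 bases, chr15:60115755-60116054 on the plus strand of hg38, are shown for that reason. They held 1 copy of the AP-1 word TGAGTCA, on the minus strand (capitals).
FOXB1 112 kb peak: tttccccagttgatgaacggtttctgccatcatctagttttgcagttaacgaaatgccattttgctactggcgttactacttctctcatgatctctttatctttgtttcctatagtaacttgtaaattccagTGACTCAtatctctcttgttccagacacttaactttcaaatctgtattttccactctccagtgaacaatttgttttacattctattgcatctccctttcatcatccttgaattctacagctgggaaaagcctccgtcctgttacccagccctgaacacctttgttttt

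In an intron of FOXB1 at chr15:60008442-60008943, 4.38 kb from a start, the counts were 55.6, 94.6 and 76.1 against 33.2, 43.4 and 40.5 (log2 fold change -0.97, standard error 0.24, adjusted p = 0.0123). That call was lost without empty vector 2 (-0.76, adjusted p = 0.132) or HMGB2OE 1 (-0.86, adjusted p = 0.0748). The third, intergenic at chr15:59919298-59919799 and 84.8 kb upstream, had 131, 123 and 114 counts against 60.4, 72.6 and 102 (log2 fold change -0.66, standard error 0.18, adjusted p = 0.0277). It held only without empty vector 3 or HMGB2OE 3, and in the other fits its adjusted p lay between 0.0799 and 0.177.

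The FOXB1 sums were 4458, 4463 and 4415 in empty vector and 3977, 3876 and 4017 in HMGB2OE. They fell by 0.17 on the log2 scale (standard error 0.04, adjusted p = 0.00961), with adjusted p = 0.0655 without empty vector 2. The highest promoter peak had 343, 269 and 302 counts against 247, 236 and 235. Its groups did not overlap, but the change of -0.34 did not pass the test (adjusted p = 0.0808), and over promoter peaks alone the sum gave -0.28 (adjusted p = 0.202). The 65 tested peaks of other genes within 500 kb had a median of -0.15, beside a median of -0.25 over the 34 FOXB1 peaks, and their part was not tested.

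FOXA3 and FOXN4 were the genes whose highest promoter peak was called. FOXA3, a pioneer factor of liver and gut, had a single peak, at chr19:45864008-45864509 over its start. The empty vector libraries had 128, 120 and 99.5 counts and the HMGB2OE libraries 64.6, 71.7 and 81.1. It was lower without overlap, at -0.68 on the log2 scale (standard error 0.18, adjusted p = 0.0182). Without empty vector 1, empty vector 2, HMGB2OE 1 or HMGB2OE 2 the change lay between -0.68 and -0.60 and the adjusted p between 0.0589 and 0.0986, so the call was lost. The FOXA3 sum holds this peak alone and is not a separate measurement. It gave -0.65 (standard error 0.18, adjusted p = 0.0328). That call was also lost without each of these libraries, at adjusted p between 0.0701 and 0.142. The 134 tested peaks of other genes within 500 kb had a median of -0.12 with 2 called higher and 5 lower.

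FOXN4, a factor of retinal amacrine and horizontal cells, had 3 tested peaks, and all 3 lay above 0. Its promoter peak at chr12:109309433-109309934, 0.399 kb before the start, had 72.3, 49.0 and 60.8 counts in empty vector and 88.4, 96.8 and 94.6 in HMGB2OE. It rose by 0.64 on the log2 scale (standard error 0.20, adjusted p = 0.0474), close to the limit, and held only without empty vector 1. In the other fits the change ran from 0.49 to 0.68 and the adjusted p from 0.0859 to 0.233. The sum of its 3 peaks was 173, 117 and 161 in empty vector and 217, 208 and 229 in HMGB2OE (log2 fold change 0.56, standard error 0.15, adjusted p = 0.0272). That call was lost without empty vector 2 (0.38, adjusted p = 0.166), HMGB2OE 1 (0.56, adjusted p = 0.0914) or HMGB2OE 3 (0.52, adjusted p = 0.0757).

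The RefSeq promoters of both genes (GRCh38.p14, 250 bases before the start) are shown because the called peaks overlap them, in full at FOXA3 and in part at FOXN4. Capitals mark GGGCGG, the core of the GC box bound by SP proteins, on either strand. The FOXA3 promoter is chr19:45864076-45864325 on the plus strand and the FOXN4 promoter chr12:109309285-109309534 on the minus strand, each written 5' to 3' towards its gene.
FOXA3 promoter: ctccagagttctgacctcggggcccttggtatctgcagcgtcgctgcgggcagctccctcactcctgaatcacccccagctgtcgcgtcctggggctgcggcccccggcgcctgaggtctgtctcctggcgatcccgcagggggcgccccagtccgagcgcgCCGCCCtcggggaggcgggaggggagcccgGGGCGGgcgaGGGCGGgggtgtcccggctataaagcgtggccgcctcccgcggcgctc
FOXN4 promoter: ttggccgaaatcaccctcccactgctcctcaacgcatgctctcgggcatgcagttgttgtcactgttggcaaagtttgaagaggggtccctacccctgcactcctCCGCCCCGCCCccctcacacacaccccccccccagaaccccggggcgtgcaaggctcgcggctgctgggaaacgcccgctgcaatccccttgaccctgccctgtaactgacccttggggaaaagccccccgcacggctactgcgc
The FOXA3 promoter held 3 copies of the word and the FOXN4 promoter 2, and 42.6% of 35116 RefSeq promoters of this length held at least 1. The marked copies of the FOXN4 promoter lay just outside its called peak, which held 3 others. RefSeq promoters were matched for 39 of the 50 genes.

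The remaining calls were single peaks of genes whose sums were not called. FOXD2, a factor of the limb and kidney mesenchyme, had an intergenic peak at chr1:47487793-47488294, 50 kb past its start, with 66.7, 43.0 and 53.8 counts against 111, 107 and 91.2. It rose by 0.95 (standard error 0.20, adjusted p = 0.00393) and stayed called without any 1 library. FOXE1, a thyroid factor, had one at chr9:97786282-97786783, 66.7 kb upstream, with 107, 99.8 and 87.8 counts against 45.1, 32.5 and 61.9. It fell by 1.10 (standard error 0.22, adjusted p = 0.00249), the largest fall among the forkhead calls, and also stayed called.

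FOXD1, a factor of the kidney stroma, had a called peak at chr5:73365398-73365899 with 177, 157 and 171 counts against 104, 125 and 97.9. The log2 fold change was -0.61 (standard error 0.15, adjusted p = 0.0108), and the call was lost without empty vector 1 (-0.58), HMGB2OE 1 (-0.57) or HMGB2OE 3 (-0.55), under the fold limit in each. FOXQ1, a factor of epithelial to mesenchymal transition in carcinomas, had a peak at chr6:1287180-1287681 with 108, 116 and 83.1 counts against 60.4, 67.6 and 66.4 (log2 fold change -0.67, standard error 0.19, adjusted p = 0.0289). This held only without empty vector 3, and the adjusted p otherwise lay between 0.0590 and 0.170.

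FOXL1, expressed in the mesenchyme under the gut epithelium, had a peak at chr16:86679506-86680007 with 73.7, 72.3 and 98.3 counts against 134, 124 and 116 (log2 fold change 0.62, standard error 0.17, adjusted p = 0.0247). It held without empty vector 3 or HMGB2OE 3, and otherwise the adjusted p lay between 0.0683 and 0.130.

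Of the FOXD4 copies, FOXD4L6 had a peak called lower at chr9:41077501-41078002 with 114, 126 and 142 counts against 69.7, 76.7 and 57.4 (log2 fold change -0.90, standard error 0.18, adjusted p = 0.00187). FOXD4L5 had the largest rise of all forkhead peaks, at chr9:64316315-64316816, with 15.3, 18.9 and 15.2 counts against 47.6, 49.2 and 49.5 (log2 fold change 1.54, standard error 0.32, adjusted p = 0.00298). Both stayed called without any 1 library. In these peaks 86.9% and 93.4% of words were repeated elsewhere, and the second lay 969 kb from the start it was assigned to, so neither can be tied to its gene with certainty.

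**Figure D3:**
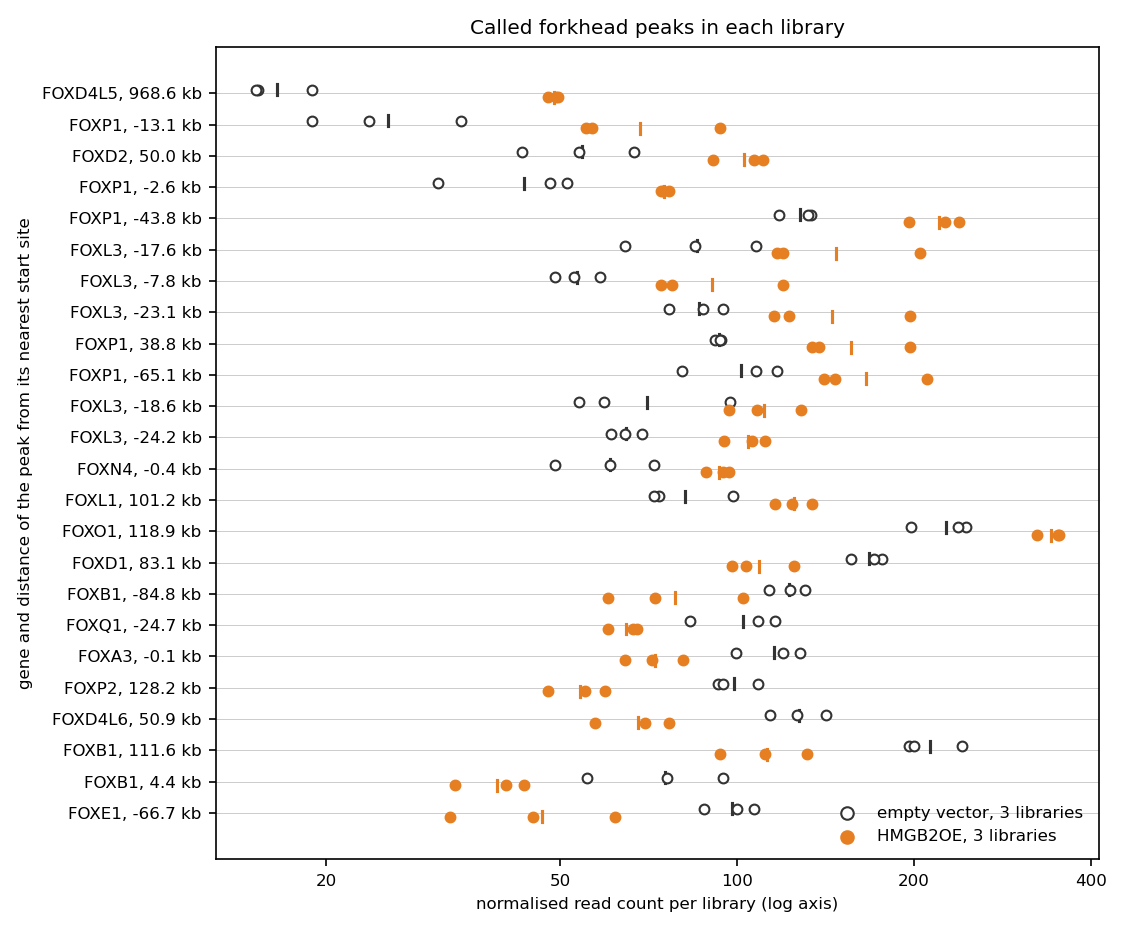
Normalised read count (log axis) of 24 of the 25 called forkhead peaks in each of the 3 empty vector (open) and 3 HMGB2OE (orange) libraries, with group means as vertical bars, ordered by log2 fold change. Labels give the gene and the distance of the peak from its nearest start site, negative upstream, and the groups overlap at 1 peak, that of FOXL3 at -18.6 kb.

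On counts summed over all peaks of each gene, 4 of 47 forkhead genes were higher (FOXN4, FOXL3, FOXP1 and FOXO1) and 2 were lower (FOXA3 and FOXB1), where a gene was called at an adjusted p under 0.05 with no fold limit. Over all 18289 genes tested in this way 5.74% were higher and 3.36% lower. The other 41 forkhead genes lay between -0.12 and 0.15 on the log2 scale. The median was 0.00022 over the 47 genes and -0.0026 over all genes. With sums limited to promoter peaks, edgeR called 0 of 33 forkhead genes, of which 9 had an unadjusted p under 0.05. The share over all genes on promoter sums is not given here, so these counts cannot be set against a background.

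**Figure D4:**
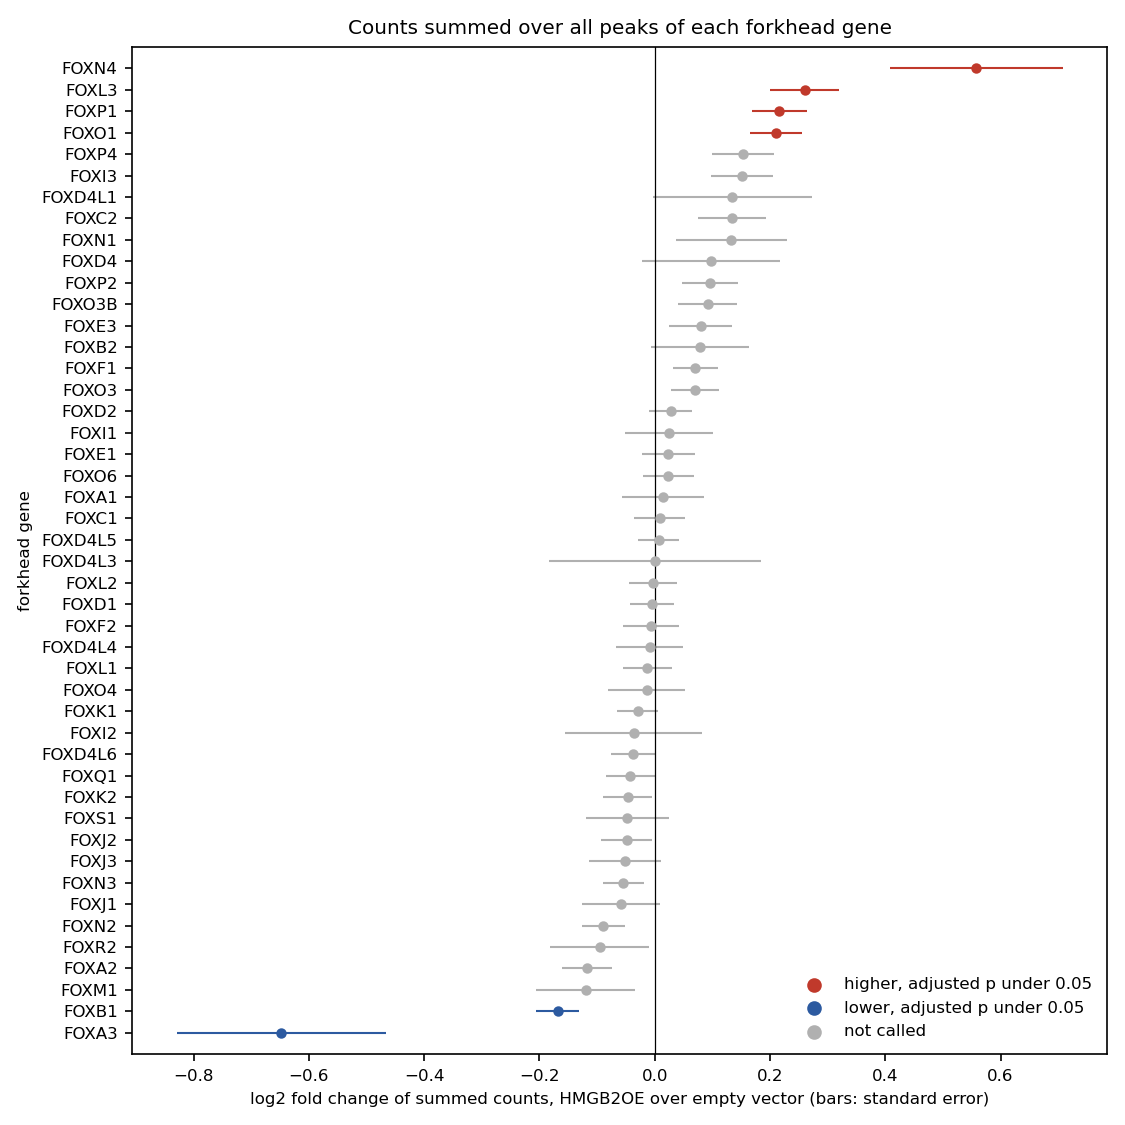
Log2 fold change (HMGB2OE over empty vector) of the counts summed over all peaks of 46 of the 47 forkhead genes with a peak, with standard errors as bars. The 4 genes called higher are red, the 2 called lower blue, and the wide bars of FOXA3 and FOXN4 rest on 1 and 3 peaks.

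Promoters were mostly level between the groups. A promoter peak was found for 33 of the 50 genes, and the highest peak of each ran from 56.2 normalised counts for FOXA2 to 1901 for FOXN2, with a median of 528 beside 638 over 14965 genes. FOXN2, FOXD2, FOXO6 and FOXD1 lay above 1000, and FOXI3, FOXA3, FOXN4 and FOXA2 were among those under 100. In 28 of the 33 the log2 fold change was within 0.25 of 0. Of these 33, the highest peak of each gene, 13 lay above 0. Of all 80 forkhead promoter peaks 44 did (55.0%), against 41.2% of all tested peaks within 3 kb of any start site. Of the 17 genes without a promoter peak, 16 had no peak of any gene within 3 kb of a start, among them FOXQ1, FOXE1, the ovarian factor FOXL2 and the FOXD4 copies, while a peak near the start of FOXH1 lay inside the neighbouring gene PPP1R16A.

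FOXM1, the mitotic factor, had a single peak, over its start, which it shares with RHNO1. It had 852, 712 and 700 counts in empty vector and 647, 713 and 670 in HMGB2OE (log2 fold change -0.15, adjusted p = 0.360), and the groups overlapped. FOXD1 had 944, 1094 and 1023 counts against 944, 1033 and 963 (log2 fold change -0.06, adjusted p = 0.739). FOXJ1, the regulator of motile cilia, had 766, 847 and 819 against 753, 805 and 730 (-0.09, adjusted p = 0.598). None of these passed the test.

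The mesenchymal factors FOXC1, FOXF1 and FOXF2 were as level. FOXC1, which also acts in neural crest cells of the eye, had 463, 546 and 596 counts against 524, 587 and 477 (log2 fold change -0.02, adjusted p = 0.955). FOXF1, needed for lung vessels, had 417, 421 and 391 against 405, 460 and 333 (-0.03, adjusted p = 0.913). FOXF2 had 202, 186 and 177 against 214, 203 and 185 (0.10, adjusted p = 0.711). The groups overlapped at all 3.

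FOXK1, a repressor of autophagy genes, had 288, 286 and 249 counts against 240, 254 and 257 (log2 fold change -0.14, adjusted p = 0.548). FOXN3, a checkpoint-related repressor, had 477, 478 and 473 against 394, 429 and 437. These did not overlap, but the change of -0.18 did not pass the test (adjusted p = 0.293). Apart from FOXA3 and FOXN4, 4 further promoter peaks had libraries without overlap, those of FOXN3, FOXB1 and FOXN1 among them, and none passed. That made 6 of 33. Over all 80 forkhead promoter peaks 18 had libraries without overlap (22.5%), against 23.9% of all tested peaks within 3 kb of any start site.

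**Figure D5:**
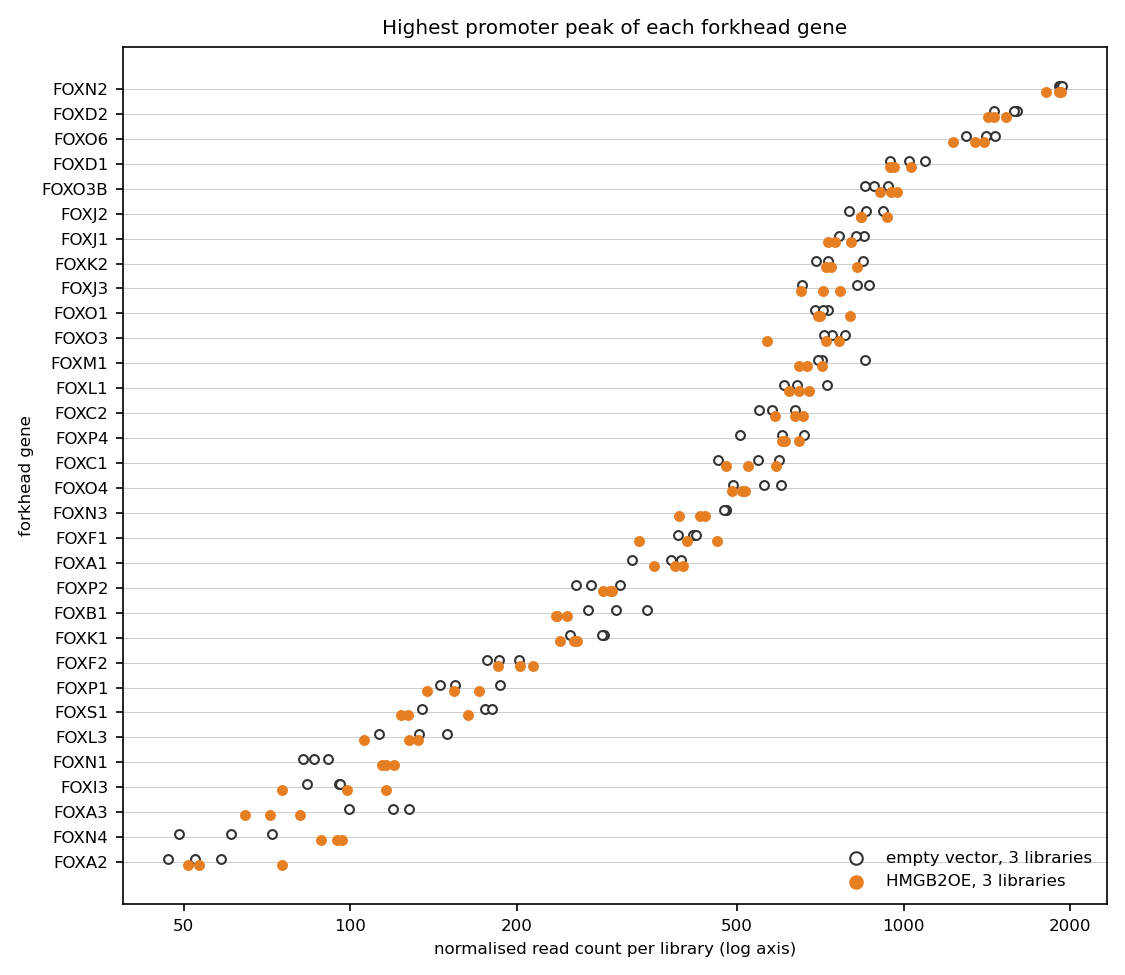
Normalised read count (log axis) of the highest promoter peak of 32 of the 33 forkhead genes that have one, in the 3 empty vector (open) and 3 HMGB2OE (orange) libraries, ordered by mean level. Levels run from 56.2 (mean for FOXA2) to 1901 (mean for FOXN2), and open and orange points overlap at most genes but not at FOXA3 (lower) and FOXN4 (higher), the 2 called, nor at FOXN3, FOXB1 and FOXN1, which were not called.

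Genes that act with the forkhead factors were read from lists that partly overlap. Of 20 FOXO regulators with 417 tested peaks, 13 peaks rose and 6 fell (4.56% called, against 3.31% of all tested peaks), at a median log2 fold change of -0.0010. By smallest p these were led by SGK1, a kinase that phosphorylates FOXO proteins, with 327, 381 and 317 counts against 229, 211 and 213 (-0.66, adjusted p = 0.000714). IRS2, an adaptor of the insulin receptor, had 145, 141 and 170 against 219, 234 and 314 (0.75, adjusted p = 0.00151). PIK3R1, the regulatory subunit of PI3K, had 25.0, 32.7 and 41.0 against 67.2, 91.7 and 79.9 (1.26, adjusted p = 0.00160). IGF1R, a growth factor receptor, was also higher (196, 179 and 176 against 301, 244 and 285, log2 fold change 0.59, adjusted p = 0.00343). All 4 were distal peaks whose groups did not overlap. The calls of SGK1 and IRS2 went both ways. Further SGK1 peaks were higher (0.65, adjusted p = 0.0102) and lower (-0.59, adjusted p = 0.0131). IRS2 had 2 further peaks higher (0.70 and 0.74), and the peak nearest its start of those called, 2822 bp away, was lower (43.1, 43.9 and 52.7 against 17.9, 23.4 and 25.9, log2 fold change -1.06, adjusted p = 0.0336). PIK3R1 had a second peak higher (0.69, adjusted p = 0.0134).

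Of 21 FOXO targets with 303 tested peaks, 6 rose and 8 fell (4.62% called, against the same 3.31%), and the median was -0.01. IRS2, which FOXO factors also activate, gave 4 of these calls, 3 higher and 1 lower, among them the one with the second smallest p of its gene (107, 106 and 160 against 237, 163 and 205, log2 fold change 0.70, adjusted p = 0.00780). SOD2, the mitochondrial superoxide dismutase, had a peak that was lower (118, 151 and 165 against 84.2, 93.4 and 79.9, log2 fold change -0.76, adjusted p = 0.00457). KLF6, a zinc finger factor, had one too (114, 135 and 144 against 77.4, 89.2 and 54.0, log2 fold change -0.82, adjusted p = 0.00550), while another KLF6 peak was higher (0.61, adjusted p = 0.0460). On sums, PIK3R1 (0.20, adjusted p = 0.00398) and BCL2L11, a pro-apoptotic gene (0.15, adjusted p = 0.0315), were higher and the insulin receptor gene INSR was lower (-0.19, adjusted p = 0.0219), and edgeR called no other gene of the 3 lists.

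Of 18 FOXM1 targets with 75 tested peaks, 0 rose and 3 fell (4.0% called, near the 3.31% of all tested peaks), and the median was -0.09. A peak of CENPE, a kinetochore motor, had 103, 82.6 and 73.7 counts against 32.3, 38.4 and 40.5 (log2 fold change -1.22, adjusted p = 0.00122). Another had 113, 159 and 111 against 86.7, 54.2 and 76.6 (-0.84, adjusted p = 0.00711). The third belonged to TPX2, a spindle assembly factor (100, 61.9 and 63.2 against 51.9, 38.4 and 33.8, log2 fold change -0.83, adjusted p = 0.0395). At an unadjusted p under 0.05 in edgeR were 14 of the 75 peaks, 1 of them higher, where 31358 of all 150117 tested peaks were in either direction. DESeq2 called 0 of the 75 higher. On sums edgeR called 0 of the 18 genes, where 5.74% of all genes were higher and 3.36% lower. Of the 18, 5 had an unadjusted p under 0.05, and DESeq2 called 1, AURKB, a mitotic kinase named here after its values were seen. The shares over all genes for these last counts are not given here.

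The words to which forkhead proteins bind were counted on both strands of the peaks. TGTTTAC was found in 73 of 710 forkhead-gene peaks (10.3%) and in 8.05% of all tested peaks. TGTTTGC was found in 77 (10.8%) and in 8.47%. TGAGTCA was in 26.9% of forkhead-gene peaks, 28% of all tested peaks and 7 of the 25 calls. Over all tested peaks, 3.60% of those with either forkhead word were called, against 3.25% of those with neither. Grouped by GC content, the order went either way, with 3.84% against 4.18% in the lowest group and 4.21% against 3.76% in the middle one. A more open site in a bulk library cannot be told apart from the same site open in more of the cells.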

How the data were processed

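ATAC-seq was done on A375 cells, with 3 empty vector and 3 HMGB2OE libraries. The authors used TrimGalore 0.6.7 and Cutadapt 4.0 for trimming, Bowtie 2 for alignment to hg38, Picard for duplicates and MACS2 for peaks (P-value setting 0.001, a public melanocyte dataset as control), merged peaks within 500 bp and deposited raw featureCounts counts per peak and library. The treatment of multiply aligned reads and of Tn5 offsets is not given in the sources used here, which matters most at repeated copies.

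Counts were tested with edgeR 4.0.16 in R 4.3.3 (TMM, filterByExpr, quasi-likelihood F test, no covariate) over all peaks, and over sums of all peaks assigned to each gene, a peak in overlapping genes counting for each. Standard errors are the size of the log2 fold change over the square root of F. DESeq2 1.42.0 was an alternative. The code was tested on simulated data. Repeated sequence is the share of 31-base words found elsewhere in hg38. The members and lists were chosen with earlier results of these data known. Results at 1 forkhead gene enter the counts but are not reported here, and 1 other gene with a FOX symbol was left out of the members. Every other called peak (at most 30) was named with all libraries, as were the highest promoter peaks of 12 fixed genes (11 had one), all genes called on sums, and up to 4 calls of each list by smallest p.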

Additional observations from a re-analysis of the deposited data

How the results depend on the processing

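No called value changed direction in any alternative run. Forkhead peaks called higher, 16, became 10 with the DESeq2 test, 28 at a looser fold limit, 28 with none, and 8 to 14 when 1 library was left out (8 without HMGB2OE 3, 10 without HMGB2OE 1). Those called lower, 9, became 14 with GC offsets, 16 with GC offsets and a replicate block, 20 at a looser fold limit, 23 with none, 3 with only peaks in gene bodies or within 50 kb, and 5 to 12 without 1 library (5 without HMGB2OE 1). All peaks called higher numbered 5045 and 5164, and lower 4283 and 4546, at that looser limit and with none, and 1821 to 2978 and 1552 to 2237 without 1 library (1821 without HMGB2OE 1). All peaks called lower, 2166, became 2038 with GC offsets and 2233 with these and the block. All peaks called higher, 2800, became 2093 with the DESeq2 test. The forkhead median log2 fold change of 0.0081 was 0.030 with total counts, -0.0029 with GC offsets, -0.0024 with these and the block, 0.020 with every peak given to the nearest start, 0.033 within 50 kb, and 0.0059 to 0.026 without 1 library. Genes called on sums, 6, became 0 with promoter peaks and 1 to 7 without 1 library (1 without empty vector 2, the deepest library). Of the 25 calls 8 held in all 6 such fits, and DESeq2 kept 17. Same-numbered deviations from the group means correlated at -0.089, 0.18 and 0.13, and those of the other pairs between -0.27 and 0.15. With only 3 libraries per group these values cannot decide whether the replicate numbers pair the libraries. With the block 18 forkhead peaks were higher and 11 lower, and of all tested peaks 3192 were higher and 2383 lower. The filter on low counts left 75 peaks untested, 74 of them at FOXD4 and its copies, and the lowest raw count at a called peak was 11, at FOXD4L5.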
